A study of Mus musculus with 10 samples.

Results

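RNA levels are described for 8 mouse genes of arginine use, out of 28247 genes measured: the arginases Arg1 and Arg2, the inducible nitric oxide synthase Nos2 (iNOS), the citrulline-recycling enzymes Ass1 and Asl, ornithine decarboxylase Odc1, and the arginine transporters Slc7a1 and Slc7a2. They were found in the deposited table by gene symbol, and each symbol matched 1 row. The set was chosen from the comparison described here, in which Arg1 and Nos2 stood among the lowest fold changes, and the other enzymes and transporters of the route were placed beside them. The levels and fold changes of these 8 genes are therefore given as a description, with no test.

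The cells were wild-type (WT) primary mouse microglia in culture, the macrophage type that lives in brain tissue. Of the 10 libraries, 5 came from samples transfected with a miR-378a-3p mimic, a synthetic double-stranded RNA that stands in for that microRNA. The other 5 libraries came from samples transfected with a negative control mimic. Both groups had first been exposed to amyloid-β oligomers, so a level without amyloid-β is not part of the comparison, and the sources used here do not give dose, exposure time or number of animals. Nothing in the labels ties the replicates to separate animals or cultures, so p-values measure the spread between these samples, which may be technical. The study asks what miR-378a-3p does to amyloid-exposed microglia in relation to exercise and Alzheimer's disease in mice.

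Arginine enters macrophages through cationic amino acid transporters. Arginase splits it into urea and ornithine, whereas nitric oxide synthase turns it into nitric oxide and citrulline, so the enzymes draw on the same substrate. Ornithine feeds the polyamines through Odc1 or proline through Oat, and citrulline can be returned to arginine by Ass1 and then Asl. In mouse macrophages, Nos2 is a classical marker of activation by interferon-γ and bacterial products, and Arg1 of activation by interleukin-4.

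The libraries held 48707985 to 65069571 deposited counts. One library stood apart: in replicate 1 of the miR-378a-3p mimic group, 7 epithelial marker genes summed to 67.6 FPKM (fragments per kilobase of transcript model and relative to library size, as the authors computed it), mainly from Krt8 (27.4 FPKM) and Krt18 (28.4 FPKM), against at most 1.73 FPKM in the other mimic libraries and 0.385 to 0.661 FPKM in the control libraries. Log2 fold changes of Arg1, Nos2, Ass1 and Slc7a2 without that library are given beside the results. For Asl, Odc1 and Slc7a1 they were -0.03, 1.0 and 0.14 in this order, and Arg2 was too low to fit. The part of the epithelial RNA in the other results was not tested. Of 15 genes in a microglia and macrophage marker list, 14 fell and 1 rose with the mimic (edgeR quasi-likelihood test, Benjamini-Hochberg adjusted p under 0.05), where 31.5% of all 15916 genes tested fell and 31.7% rose. Their sum was 1176 to 1225 FPKM in mimic libraries against 1412 to 1505 FPKM in control libraries. Cd68, the 1 gene that rose, was the largest part of it, averaging 599 FPKM in mimic libraries and 526 FPKM in control libraries. The sum thus understates the falls of the other markers, and the median log2 fold change of the list was -0.84. The part of this shift in the results was not tested. Itgam and Tyrobp were well expressed, but some other markers were close to 0. Tmem119, a microglial marker, averaged 0.325 FPKM in mimic libraries and 0.695 FPKM in control libraries. P2ry12, also microglial, averaged 0.257 FPKM and 1.49 FPKM in the same order, and C1qa 0.0475 FPKM and 0.496 FPKM. Cx3cr1, another microglial marker, averaged 0.475 FPKM in mimic libraries but 28.6 FPKM in control libraries. The astrocyte list summed to 74.6 to 85.1 FPKM with the mimic and 92.8 to 107 FPKM in the control, nearly all of it from Aldoc. Lists for neurons, oligodendrocyte lineage, fibroblasts and endothelium each stayed at or below 0.767 FPKM in mimic libraries and 0.852 FPKM in control libraries. In bulk samples such as these, fewer cells expressing a gene and less RNA per cell cannot be told apart.

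With the miR-378a-3p mimic, Arg1 and Nos2 were both far below the control, Odc1 was at about double the control level, Slc7a2 was lower, Slc7a1 was slightly higher, and Ass1 and Asl overlapped between the groups. Arg2 was near 0 in every library. Of the 8 genes, 7 passed the filter on low counts. All mimic libraries lay below all control libraries for 3 of these 7, as they did for 20.8% of all 15916 genes tested, and all mimic libraries lay above all control libraries for 2 of the 7, as they did for 31.4% of all genes tested. Since the set was chosen from this contrast, nothing is read from these shares.

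**Figure D1:**
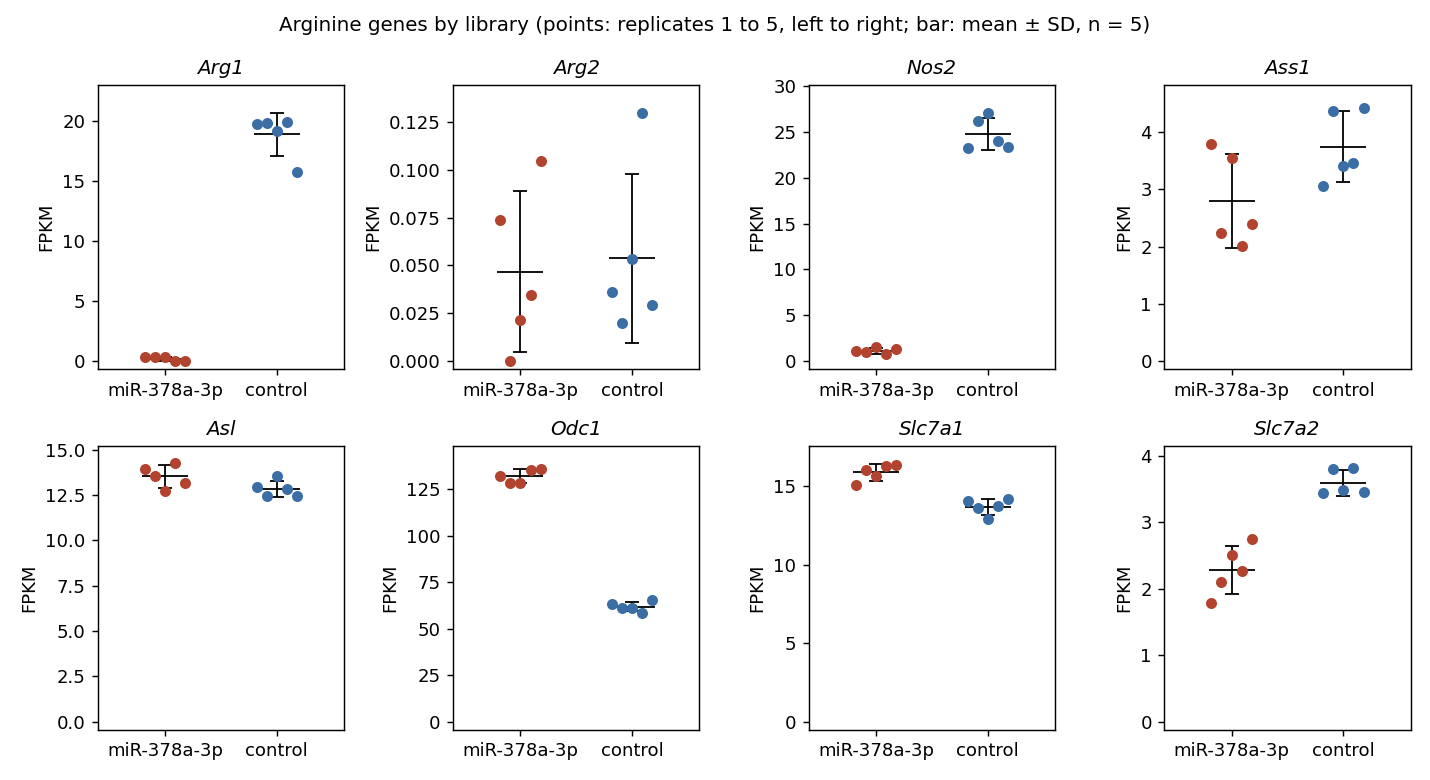
FPKM of the 8 arginine genes in each library, with the 5 miR-378a-3p mimic libraries on the left of each panel and the 5 control mimic libraries on the right; bars give the mean ± SD, and each panel has its own linear scale. Arg1 and Nos2 sit near 0 in mimic libraries and near 20 FPKM or above in most control libraries, while Odc1 runs the other way.

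Arg1, the cytosolic arginase, lies on chromosome 10 (24915221 to 24927484, minus strand, GRCm38). It had 0.345, 0.337, 0.313, 0 and 0.0469 FPKM in the 5 miR-378a-3p mimic libraries, and 19.7, 19.8, 19.2, 19.9 and 15.7 FPKM in the 5 control libraries. Every mimic library was far below every control library, and replicates 4 and 5 of the mimic were lower still than the other mimic libraries. The means were 0.209 ± 0.170 FPKM in mimic libraries and 18.9 ± 1.79 FPKM in control libraries (SD, n = 5 each). Behind these stand 156 deposited counts over all mimic libraries against 13280 over all control libraries. Replicates 4 and 5 of the mimic, with 0 and 7 counts, are below a floor of 12 counts, which is 3 read pairs.

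The log2 fold change of Arg1, mimic over control, was -6.53 (SE 0.37), the 12th lowest of 15916 genes, and -6.78 without mimic replicate 1. On the log2(FPKM + 1) scale, which understates changes of low genes, it was -4.04. In control libraries the mean level of Arg1 exceeded that of 82.6% of tested genes, and in mimic libraries that of 12% of them.

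Arg2, the mitochondrial arginase, lies on chromosome 12 (79130777 to 79156301). It had 0.0736, 0, 0.0212, 0.0348 and 0.104 FPKM in mimic libraries and 0.0362, 0.0201, 0.0531, 0.130 and 0.0296 FPKM in control libraries. All 10 values come from at most 10 counts, below the floor, so a difference in Arg2 was not detectable at this depth. The level of Arg1 therefore made up nearly all the arginase RNA measured in control libraries.

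Nos2, on chromosome 11 (78920787 to 78960254, plus strand), makes the nitric oxide of activated macrophages. It had 1.11, 0.952, 1.51, 0.739 and 1.28 FPKM in mimic libraries, against 23.2, 26.2, 27.1, 24.0 and 23.4 FPKM in control libraries. The groups were far apart, and no library stood out within either of them. Its means were 1.12 ± 0.297 FPKM with the mimic and 24.8 ± 1.76 FPKM with the control mimic (SD, n = 5 each). Unlike Arg1 in its lowest libraries, Nos2 kept 211 to 429 counts in each mimic library, against 5709 to 8654 in each control library. Its log2 fold change was -4.56 (SE 0.13), a 23.6-fold lower level, and -4.55 without mimic replicate 1; on the log2(FPKM + 1) scale it was -3.61.

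Arg1 and Nos2 were thus low in the same libraries and high in the same libraries. The ratio of Nos2 to Arg1 in FPKM was 3.20, 2.82, 4.82 and 27.3 in the mimic libraries with any Arg1 counts, and 1.18 to 1.49 in control libraries. The value of 27.3, in mimic replicate 5, rests on 7 Arg1 counts, and replicate 4 gave no ratio because Arg1 was at 0.

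**Figure D2:**
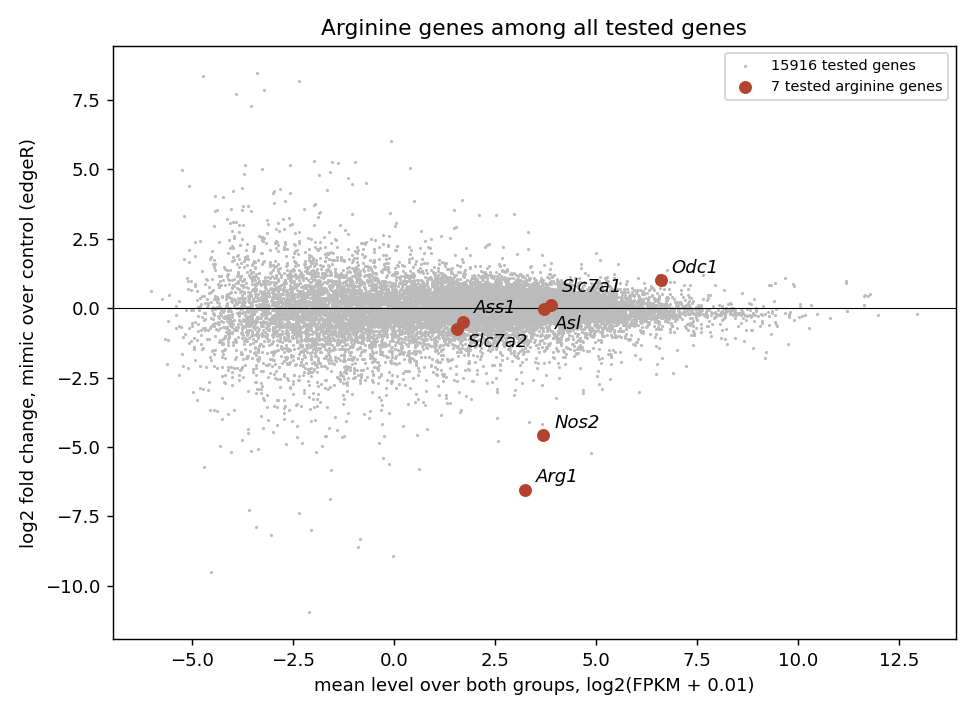
Log2 fold change (mimic over control, vertical axis) against the mean level over both groups in log2(FPKM + 0.01) (horizontal axis) of all 15916 genes tested, with the 7 tested arginine genes labelled. Arg1 at -6.53 and Nos2 at -4.56 lie at the lower edge of the cloud, Odc1 at 1.0 lies among the abundant genes, and the other members lie between -0.74 and 0.12.

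The recycling enzymes had no such separation. Ass1, argininosuccinate synthase, which joins citrulline to aspartate, lies on chromosome 2 (31470207 to 31520672). It had 3.80, 2.23, 3.55, 2.01 and 2.40 FPKM in mimic libraries and 3.05, 4.37, 3.41, 3.45 and 4.43 FPKM in control libraries. Replicates 1 and 3 of the mimic fell within the control range and the other mimic libraries below it. The means were 2.80 ± 0.816 FPKM and 3.74 ± 0.619 FPKM in the mimic and control groups (SD, n = 5 each), with a log2 fold change of -0.51 (SE 0.17), and -0.64 without mimic replicate 1.

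Asl, argininosuccinate lyase, which releases arginine and fumarate, lies on chromosome 5 (130011258 to 130025019). It had 13.9, 13.5, 12.7, 14.3 and 13.2 FPKM in mimic libraries, against 13.0, 12.5, 13.5, 12.8 and 12.5 FPKM in control libraries. The groups overlapped, and the log2 fold change was -0.02 (SE 0.04), with the sign turning to 0.06 when counts were scaled by library totals. In every library Asl stood above Ass1 in FPKM, by 3.58 to 7.09 times with the mimic and by 2.81 to 4.25 times with the control mimic.

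Odc1, on chromosome 12 (17544794 to 17551084), turns ornithine into putrescine and is the most tightly controlled step of polyamine synthesis. It was the most abundant of the 8 genes. It had 132.4, 128.5, 128.3, 135.4 and 136.2 FPKM in mimic libraries, and 63.3, 61.0, 61.3, 58.5 and 65.3 FPKM in control libraries. The groups were widely separated and each was tight, with means of 132 ± 3.70 FPKM and 61.9 ± 2.56 FPKM in the mimic and control groups (SD, n = 5 each). The log2 fold change was 1.0 (SE 0.03), a 2.01-fold higher level, and lay between 0.98 and 1.09 under all 19 alternative settings. A ratio that no scaling can move, Odc1 over Asl within a library, was 9.49 to 10.3 with the mimic and 4.53 to 5.24 in the control. A small nucleolar RNA gene, Gm22748, overlaps Odc1, and the sources used here do not say how reads were shared between them.

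The stretches of DNA just before the RefSeq starts of Odc1, Slc7a1 and Ass1 are shown, as only these members have a RefSeq promoter entry. Odc1 and Slc7a1 were higher with the mimic without overlap between the groups, and Ass1 overlapped. The sequences are RefSeq's for the GRCm38.p6 build, 250 bases ending at the base before the RefSeq transcript start, read 5′ to 3′ on the strand of the gene: chr12:17544623-17544872 (plus strand) for Odc1, chr5:148399905-148400154 and chr5:148392816-148393065 (minus strand) for the upstream and downstream starts of Slc7a1, and chr2:31470020-31470269 (plus strand) for Ass1. Capitals mark 3 motifs searched on both strands that did not overlap here: GGGCGG or its complement CCGCCC (the GC box), CACGTG (the E-box bound by Myc family proteins) and TATAAA (the TATA box).
Odc1: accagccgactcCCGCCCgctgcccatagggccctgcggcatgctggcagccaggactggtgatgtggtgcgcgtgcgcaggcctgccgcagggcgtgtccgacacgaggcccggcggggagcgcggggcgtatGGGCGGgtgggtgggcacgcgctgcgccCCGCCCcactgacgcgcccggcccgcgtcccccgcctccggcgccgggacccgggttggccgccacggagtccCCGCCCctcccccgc
Slc7a1, upstream start: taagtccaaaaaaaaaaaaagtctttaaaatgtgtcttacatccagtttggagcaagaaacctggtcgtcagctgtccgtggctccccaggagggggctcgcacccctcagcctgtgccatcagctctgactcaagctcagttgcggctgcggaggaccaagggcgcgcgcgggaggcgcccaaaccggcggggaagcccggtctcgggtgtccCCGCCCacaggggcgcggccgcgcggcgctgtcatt
Slc7a1, downstream start: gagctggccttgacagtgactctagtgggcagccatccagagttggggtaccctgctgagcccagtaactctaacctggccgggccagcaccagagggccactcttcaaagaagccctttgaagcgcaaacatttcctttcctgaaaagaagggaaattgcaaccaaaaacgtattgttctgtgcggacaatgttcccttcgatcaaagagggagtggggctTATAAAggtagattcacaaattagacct
Ass1: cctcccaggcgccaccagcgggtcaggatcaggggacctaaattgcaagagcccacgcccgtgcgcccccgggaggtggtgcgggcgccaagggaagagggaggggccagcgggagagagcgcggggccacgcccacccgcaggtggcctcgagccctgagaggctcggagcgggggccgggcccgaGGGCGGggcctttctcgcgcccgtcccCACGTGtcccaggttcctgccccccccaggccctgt
The Odc1 window held 4 GC boxes, at 238, 116, 88 and 15 bases before the start, and neither of the other motifs. The upstream Slc7a1 window held 1 GC box, 36 bases before the start, and the downstream one held no GC box and 1 TATA box, 28 bases before the start. The Ass1 window held 1 GC box, 63 bases before the start, and 1 E-box, 36 bases before it. These distances are from the RefSeq starts, which differ from the deposited gene starts of Ass1 (31470207) and Odc1 (17544794). Both Ass1 motifs, and the Odc1 GC box at 15 bases, lie inside the deposited gene intervals. The downstream Slc7a1 window also lies inside the deposited interval of Slc7a1. Among 32851 mouse promoter windows of the same length, 32.7% held a GC box, 6.02% an E-box and 12.4% a TATA box. The G and C content was 80% in Odc1, 62.4% and 50% in the upstream and downstream windows of Slc7a1, and 75.6% in Ass1, against a median of 52.4%.

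The transporters also parted. Slc7a1, the widely expressed cationic amino acid transporter, lies on chromosome 5 (148327410 to 148399904). It had 15.1, 16.0, 15.7, 16.3 and 16.4 FPKM with the mimic, against 14.1, 13.6, 12.9, 13.7 and 14.2 FPKM in the control. The groups did not overlap but lay close, with means of 15.9 ± 0.533 FPKM in mimic libraries and 13.7 ± 0.501 FPKM in control libraries (SD, n = 5 each). The log2 fold change was 0.12 (SE 0.03), and 0.20 when counts were scaled by library totals.

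Slc7a2, the cationic transporter that is induced in activated macrophages, lies on chromosome 8 (40862396 to 40922308). Its levels were 1.79, 2.11, 2.50, 2.27 and 2.75 FPKM in mimic libraries and 3.43, 3.80, 3.48, 3.82 and 3.45 FPKM in control libraries. All mimic libraries lay below all control libraries, with means of 2.28 ± 0.366 FPKM and 3.60 ± 0.194 FPKM in the mimic and control groups (SD, n = 5 each). The log2 fold change was -0.74 (SE 0.09), -0.67 without mimic replicate 1 and -0.49 on the log2(FPKM + 1) scale. The ratio of Slc7a1 to Slc7a2 was 5.95 to 8.40 in mimic libraries and 3.58 to 4.10 in control libraries.

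The order of the 8 genes by FPKM also differed between the groups. With the mimic it ran Odc1, Slc7a1, Asl, Ass1, Slc7a2, Nos2, Arg1 and Arg2, and the ranges of Ass1 and Slc7a2 overlapped, as did those of Arg1 and Arg2. In the control it ran Odc1, Nos2, Arg1, Slc7a1, Asl, Ass1, Slc7a2 and Arg2. There the ranges of Slc7a1 and Asl overlapped, as did those of Ass1 and Slc7a2.

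The genes whose pattern over the 10 libraries was nearest to those of Arg1 and Nos2 were found by the Euclidean distance between centred log2(FPKM + 0.1) values. For Arg1 they were Cx3cr1, the fractalkine receptor of microglia (distance 2.29), Serpinb1a, an inhibitor of neutrophil proteases (2.48), and Nos2 itself (3.39). For Nos2 they were Igf1, insulin-like growth factor (0.681), Siglec1, a sialic acid-binding receptor of macrophages (0.790), and Xirp1, an actin-binding protein of muscle (0.867). Cx3cr1 averaged 0.475 ± 0.111 FPKM in mimic libraries and 28.6 ± 1.84 FPKM in control libraries, and Igf1 averaged 0.437 ± 0.150 FPKM and 11.4 ± 0.958 FPKM in the same order (SD, n = 5 each). Xirp1 lies inside the interval of Cx3cr1 on the same strand, so their reads may be shared. Xirp1 had at most 0.0194 FPKM in mimic libraries, where the pseudocount sets nearly all of the value. Its log2 fold change was -8.91, against -4.56 for Nos2, so its nearness to Nos2 depends on the pseudocount. With 2 groups this far apart, the distance mostly reflects the size of the group difference, for which Arg1 and Nos2 were chosen. The larger distances for Arg1 come with its low values in mimic replicates 4 and 5, where the pseudocount sets most of the value.

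**Figure D3:**
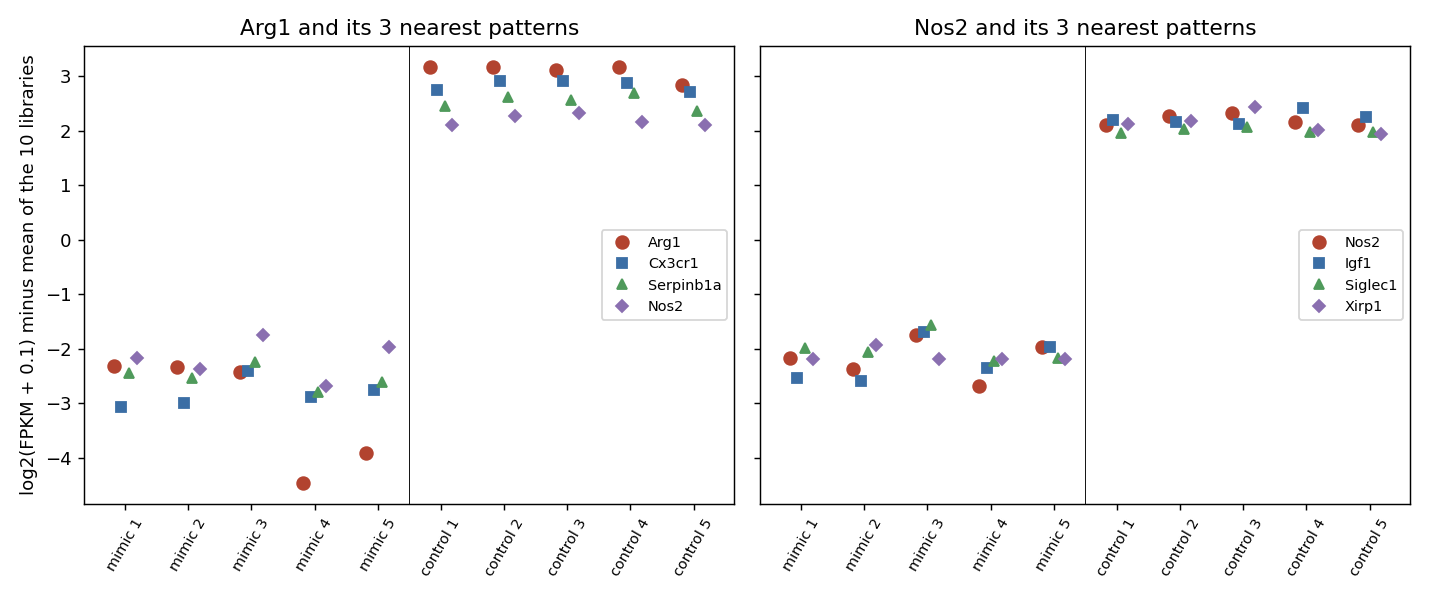
Log2(FPKM + 0.1) minus the mean of the 10 libraries (vertical axis) for Arg1 (left panel) and Nos2 (right panel) with the 3 genes nearest to each, in the 5 mimic libraries and then the 5 control libraries. All the genes split the groups, as nearness to Arg1 or Nos2 requires, and Arg1 drops below its companions in mimic replicates 4 and 5.

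Next to Arg1 lies Gm36172, a long noncoding RNA that the authors' table types as transcribed from a bidirectional promoter. It runs on the other strand from 24927619 to 24930059 of chromosome 10 and begins 135 bases beyond the end coordinate of Arg1, which is the side where Arg1 starts. It was picked out after its values were seen. It had 0.297, 0.789, 0.583, 0.424 and 0.0650 FPKM in mimic libraries and 2.78, 2.68, 2.56, 2.06 and 1.59 FPKM in control libraries, without overlap. Gm36172 fell by 2.50 on the log2 scale (SE 0.39; edgeR adjusted p = 4.63e-05), and it was called in 19 of 19 alternative settings, with log2 fold changes between -2.83 and -1.23. Its counts are few, 4 to 38 with the mimic and 66 to 134 in the control, and the sources used here do not say whether counting used strand.

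**Figure D4:**
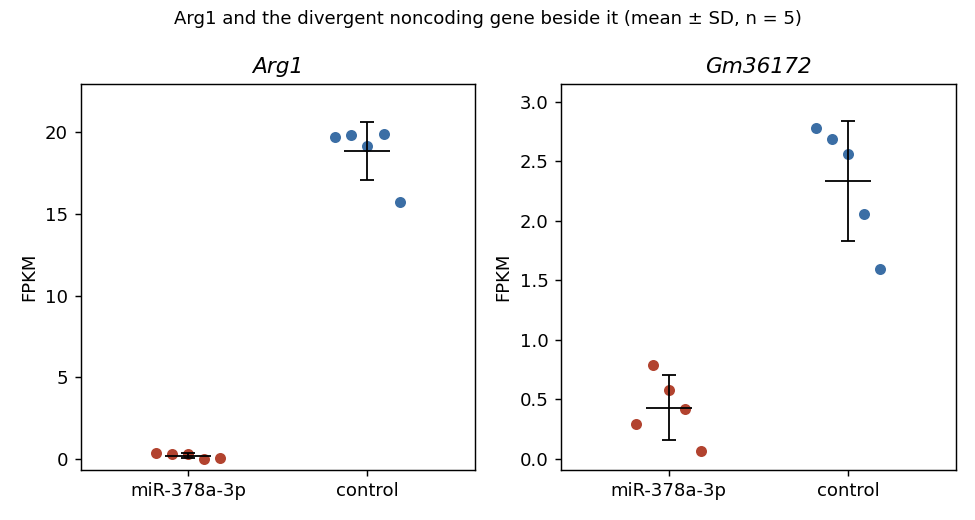
FPKM of Arg1 and of the neighbouring noncoding RNA Gm36172 in each library, with the 5 mimic libraries on the left of each panel and the 5 control mimic libraries on the right; bars give the mean ± SD. Gm36172 averages 0.431 FPKM in mimic libraries and 2.33 FPKM in control libraries, and like Arg1 its groups do not overlap.

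Other genes within 100000 bases of Arg1 and Nos2 had smaller changes. Med23, a Mediator subunit beside Arg1, averaged 8.13 ± 0.388 FPKM with the mimic and 8.74 ± 0.520 FPKM in the control, with overlap. Its small log2 fold change of -0.19 passed the test (edgeR adjusted p = 0.00119). Beside Nos2, Lgals9, which encodes galectin-9, fell by 0.60, Lyrm9 rose by 0.49, and Ksr1, a kinase scaffold, had a log2 fold change of -0.12 that did not pass the test (edgeR adjusted p = 0.319).

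The rest of the pathway was read from 6 lists of genes other than the 8, with 90 genes in all, of which 84 were in the table and 72 passed the filter. With the mimic 34 of the 72 fell and 19 rose, and 19 did not pass (edgeR, adjusted p under 0.05 over all genes tested). Over all genes tested, 31.5% fell and 31.7% rose. The median log2 fold change was -0.08 over the 72 genes and -0.0021 over all genes. Scaling by library totals turned the counts over the 72 to 28 that fell and 26 that rose, with a median of -0.0015. The same scaling moved the median of all genes by 0.077, and gave 4225 lower and 5937 higher genes over the whole table in place of 5006 lower and 5050 higher. Without mimic replicate 1, 35 of the 72 genes fell and 18 rose.

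**Figure D5:**
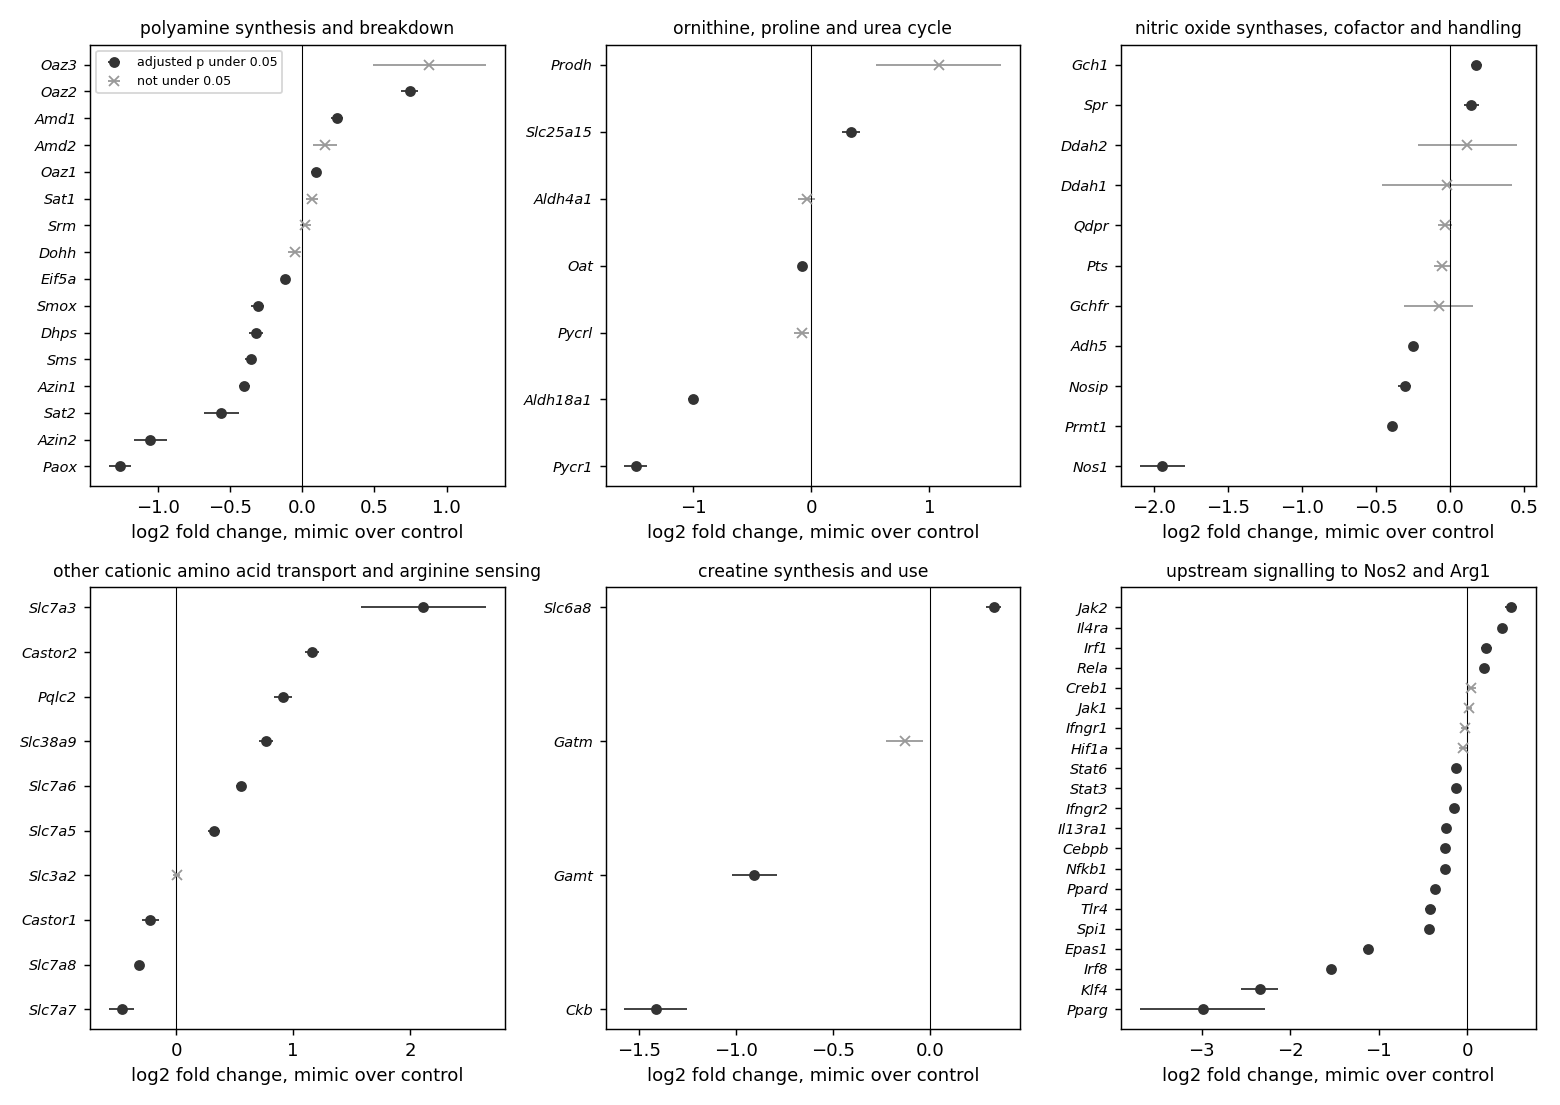
Log2 fold change (mimic over control, horizontal axis) for 69 of the 72 tested genes of the 6 lists, 1 panel per list, sorted by fold change; lines give the SE, dots mark genes with adjusted p under 0.05, crosses the others, and each panel has its own scale. Castor2 at 1.16 stands out on the right, and Klf4 at -2.34, Nos1 at -1.94 and Irf8 at -1.54 on the left. The wide lines of Slc7a3 at 2.11 and Pparg at -2.99 belong to genes under 0.3 FPKM in every library.

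The polyamine synthesis and breakdown list holds genes downstream of Odc1 and, as the Oaz and Azin genes, regulators of its protein. Of its 16 tested genes 8 fell, 3 rose and 5 did not pass, with a median of -0.08. Of all genes tested, 31.5% fell and 31.7% rose. Paox, which oxidises acetylated polyamines, fell to 3.04 ± 0.385 FPKM in mimic libraries, against 6.85 ± 0.325 FPKM in control libraries (log2 fold change -1.26, SE 0.08; edgeR adjusted p = 1.59e-09). Oaz2, an antizyme that binds ornithine decarboxylase and sends it for breakdown, rose to 18.2 ± 1.38 FPKM with the mimic, against 10.2 ± 0.761 FPKM in the control (log2 fold change 0.74). Azin1, the inhibitor of antizymes, fell by 0.40 on the log2 scale, and Sms, spermine synthase, fell by 0.36. Oaz1, the most abundant antizyme, rose by 0.10, a call kept in 13 of 19 alternatives, and Amd1, which makes the aminopropyl donor, rose by 0.24; Amd1 has a close copy, Amd2, that may share its reads. With library totals, and with limma on either FPKM scale, 7 of these genes rose in place of 3 and the median lay between -0.0073 and 0.0053.

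In the ornithine, proline and urea cycle list, 3 of 8 tested genes fell, 2 rose and 3 did not pass. Of all genes tested, 31.5% fell and 31.7% rose. The median of the list was -0.06, and 0.02 with library totals. Aldh18a1, which makes the proline precursor from glutamate, fell to 18.5 ± 1.04 FPKM with the mimic, against 34.8 ± 1.9 FPKM in the control (log2 fold change -1.0, SE 0.04; edgeR adjusted p = 2.87e-11). Pycr1, 1 of the genes for the last step of proline synthesis, fell to 0.895 ± 0.0839 FPKM with the mimic, against 2.37 ± 0.187 FPKM in the control (log2 fold change -1.48). Its far more abundant relative Pycrl, also known as Pycr3, averaged 25.61 FPKM with the mimic and 25.45 FPKM in the control. Pycrl had a log2 fold change of -0.08 and did not pass (edgeR adjusted p = 0.261). Slc25a15, the mitochondrial ornithine carrier, rose by 0.33 on the log2 scale. Oat, which turns ornithine towards proline, averaged 63.6 FPKM with the mimic and 63.1 FPKM in the control; its log2 fold change of -0.08 passed the test (edgeR adjusted p = 0.0212) but was -0.00052 with library totals, where it did not. Otc and Nags were not analysed here.

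Nitric oxide synthases, their cofactor and nitric oxide handling gave 4 lower and 3 higher genes of 12 tested, with 5 that did not pass. The shares over all genes tested were 31.5% lower and 31.7% higher. The median of the list was -0.05, and 0.03 with library totals. Nos1, the neuronal synthase, fell to 0.567 ± 0.0471 FPKM in mimic libraries, against 2.05 ± 0.487 FPKM in control libraries (log2 fold change -1.94, SE 0.15; edgeR adjusted p = 2.2e-08). Nos3, the endothelial synthase, had 0 counts in all 10 libraries. Gch1, the first enzyme in the synthesis of tetrahydrobiopterin, the cofactor of nitric oxide synthases, rose to 9.18 ± 0.314 FPKM with the mimic, against 7.65 ± 0.164 FPKM in the control (log2 fold change 0.17; edgeR adjusted p = 0.000691). Prmt1, which methylates protein arginines, fell by 0.39, and Adh5, which clears nitrosoglutathione, fell by 0.25.

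In the list of other cationic amino acid transport and arginine sensing, 6 of 10 tested genes rose, 3 fell and 1 did not pass. Of all genes tested, 31.7% rose and 31.5% fell. The median of the list was 0.44. Castor2, a homologue of the cytosolic arginine sensor of mTORC1, rose to 8.16 ± 0.537 FPKM in mimic libraries, against 3.43 ± 0.296 FPKM in control libraries (log2 fold change 1.16, SE 0.06; edgeR adjusted p = 2.58e-10). Castor1, that sensor itself, averaged 8.65 ± 0.686 FPKM with the mimic and 9.48 ± 0.658 FPKM in the control, with overlap; its log2 fold change of -0.22 passed the test (edgeR adjusted p = 0.0129) but was -0.14 with library totals, where it did not (edgeR adjusted p = 0.0957). Lysosomal genes rose as well: Pqlc2, also known as Slc66a1, an exporter of cationic amino acids, averaged 5.69 ± 0.491 FPKM with the mimic and 2.84 ± 0.250 FPKM in the control, and Slc38a9, the lysosomal arginine sensor, averaged 2.13 ± 0.137 FPKM and 1.17 ± 0.0752 FPKM in the same order. Slc7a6, a subunit of a cationic amino acid exchanger at the cell surface, rose by 0.55 on the log2 scale. It averaged 25.3 FPKM with the mimic and 16.2 FPKM in the control. Its counterpart Slc7a7 was far less abundant in these libraries, at 1.70 FPKM and 2.21 FPKM in the same order. Slc7a7 fell by 0.47, although its mimic and control libraries overlapped. Slc7a7 and Slc7a5 (0.32 higher) were named after their values were seen.

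Of the 4 tested genes of creatine synthesis and use, which takes arginine as a precursor, 2 fell and 1 rose. The shares over all genes tested were 31.5% and 31.7% in the same order. Ckb, brain-type creatine kinase, fell to 0.636 ± 0.147 FPKM with the mimic, against 1.62 ± 0.222 FPKM in the control, and Gamt, which makes creatine, fell to 2.36 ± 0.378 FPKM, against 4.17 ± 0.243 FPKM. Slc6a8, the creatine transporter, rose by 0.33 on the log2 scale. Gatm, which draws on arginine directly, had a log2 fold change of -0.13 and did not pass (edgeR adjusted p = 0.258).

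The signalling genes upstream of Nos2 and Arg1 gave 14 lower, 4 higher and 4 that did not pass, of 22 tested. Their median was -0.20, and with library totals 11 fell and 6 rose. Of all 15916 genes tested 31.5% fell and 31.7% rose, and with library totals 4225 fell and 5937 rose. Irf8, a transcription factor of the microglial lineage and of interferon responses, fell to 6.99 ± 0.331 FPKM in mimic libraries, against 19.2 ± 0.605 FPKM in control libraries (log2 fold change -1.54, SE 0.04; edgeR adjusted p = 1.68e-13). Epas1, a hypoxia-inducible factor subunit, fell to 4.13 ± 0.291 FPKM with the mimic, against 8.45 ± 0.309 FPKM in the control. Spi1, which encodes the myeloid factor PU.1, fell by 0.44. Of the genes of the interleukin-4 arm, Il4ra, its receptor, rose by 0.39, whereas Klf4, a factor downstream of it, fell to 0.398 ± 0.163 FPKM with the mimic, against 1.91 ± 0.232 FPKM in the control. Stat6, its main transcription factor, had a log2 fold change of -0.12 that passed the test (edgeR adjusted p = 0.00307), and -0.05 with library totals, where it did not. The last 3 genes and Jak2, which rose by 0.50, were named after their values were seen.

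The authors' own KEGG annotation gave a further reading, added after the data were seen and with the 8 genes left out. Of 10 tested genes annotated to arginine biosynthesis, 7 fell and 2 rose, and with library totals 3 fell and 3 rose. Of 35 annotated to arginine and proline metabolism, 16 fell and 5 rose, against 11 and 10 with library totals. The medians were -0.11 and -0.12, and with library totals -0.03 and -0.04. Over all 15916 genes tested, 31.5% were lower and 31.7% higher, with a median of -0.0021. With library totals 4225 of all genes tested were lower and 5937 higher, with a median of 0.075.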

How the data were processed

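Poly(A) RNA was made into dUTP-marked libraries and sequenced as read pairs, per the labels' protocols. The authors deposited 1 table that holds, for each library, an expected count (an estimated count, already whole, used as it stood) and an FPKM value of every gene, as its header names them. The submitters' processing notes name cutadapt 1.9, HISAT2 2.2.1, StringTie 2.1.6, DESeq2, edgeR and GRCm39, without their roles. The deposited coordinates share a start or end with the GRCm38 annotation GENCODE M21 in 96.4% of 28163 genes and are given as GRCm38. Counts pile up at multiples of 4 (933.5 genes per library at 4, 485.6 at 3), so 1 read pair was taken as 4 counts, and the floor of 3 pairs as 12 counts, for counting error only.

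Groups came from the treatment label. Genes kept by filterByExpr were tested with edgeR 4.0.16 (R 4.3.3; TMM, glmQLFit, glmQLFTest, no covariate, Benjamini-Hochberg over 15916 genes). A fold change is mimic over control, and its SE is its size over the square root of F. The fits were tested on simulated data. The text names all 8 arginine genes, from each list up to 4 genes with the smallest adjusted p under 0.05, and the 3 genes nearest in pattern to Arg1 and to Nos2; some genes the rule gave are in the counts but are not reported here, and genes named beyond it were chosen after their values were seen. The genes and lists were chosen with earlier results of these data known. Alternatives were limma 3.58.1 on log2(FPKM + 1) and on a pseudocount of 0.1, DESeq2 1.42.0, other scalings and filters, leaving out each library, and a block for the replicate number. Promoters came from RefSeq by symbol, with entries for 3 of the 8 genes.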

Additional observations from a re-analysis of the deposited data

Results flagged for a closer look

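Of 62 groups of 5 libraries examined for a single library far from the rest, 3 held one, where chance gives about 3.1. Arg1 in control replicate 5 had 15.7 FPKM, the lowest of its group, with the nearest other control library at 19.2 FPKM. Nos1 in control replicate 2 had 1.21 FPKM, the lowest of its group, against 2.07 FPKM in the nearest. Sms in miR-378a-3p mimic replicate 1 had 13.7 FPKM, the highest of its group, against 13 FPKM in the nearest.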

How the results depend on the processing

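Over 19 alternative settings, no member with separated groups changed the sign of its fold change, and the 23 pathway genes that the naming rule gave kept their call and direction in all of them. The number of polyamine genes that rose was 7 in place of 3 with library totals without TMM, with limma on log2(FPKM + 1) and with limma on log2(FPKM + 0.1), the added genes being Srm, Sat1, Oaz3 and Amd2. With limma on log2(FPKM + 1), 28 pathway genes fell and 25 rose. Leaving out each library in turn gave 4876 to 5099 lower and 4708 to 4950 higher genes over the whole table, and 33 to 35 lower and 18 to 20 higher among the 72 pathway genes. Same-numbered libraries hardly deviated together (r between -0.0087 and 0.0621). No pairing by number was seen, but low correlations cannot exclude shared cultures. With the replicate block, 4889 genes fell and 4879 rose, and 34 and 19 of the pathway genes. At this depth, Arg1 in 2 mimic libraries and Arg2 throughout were below the floor, which limits the size of their ratios.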
